A study of Mus musculus with 16 samples.

Results

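The genes described here are 8 genes of cellular senescence and of the p53 response: Cdkn1a, Cdkn2a, Cdkn2b, Trp53, Mdm2, Gdf15, Ccnd1 and Lmnb1. They were taken by symbol from the 55487 genes of the count tables, and all 8 were found and passed the filter that left 17813 genes to test. Hearts came from C57Bl/6J mice aged 24 months, and RNA of a left ventricular mid section was sequenced from 8 mice with more than 3 past pregnancies (multiparous) and 8 virgin mice. Of the multiparous libraries, 4 carry the code P in their names and 4 the code MP, which no label explains, and all virgin libraries carry the code AA, so that parity and the codes cannot be told apart. No source used here states the number of litters or the time since the last one. No label ties a library to a named animal, so the p-values speak only of library-to-library spread.

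Gene counts ranged from 34560606 to 58890976 per library in 15 libraries and reached 228325238 in virgin 8. Cardiomyocyte markers (9 genes, Myh6 and Tnnt2 among them) summed to between 56860 and 73540 CPM (counts scaled to library size) and were the most abundant marker list. The surfactant gene Sftpc of the lung had a highest value of 0.0485 CPM. A list of 12 liver genes summed to 343.3 CPM in multiparous 2, 284.2 CPM in multiparous 7 and 229.4 CPM in virgin 8. Elsewhere it reached at most 76.02 CPM (group difference, exact permutation p = 0.254, adjusted p = 0.545 over 15 marker lists). A list of 20 kidney tubule genes had a lower sum in multiparous hearts (110.3 to 156.4 CPM) than in virgin hearts (138.1 to 245.3 CPM), with 16 of its 17 tested genes lower and none at 0 in every library (exact permutation p = 0.00187, adjusted p = 0.028 over 15 marker lists). Several genes specific to the tubule had large fold differences, and none passed alone. Lrp2 averaged 3.23 CPM with and 21.7 CPM without past pregnancies, and Kap 0.772 and 8.4 CPM. Slc34a1 averaged 0.407 and 4.27 CPM and Umod 0.328 and 3.68 CPM. Slc4a4 (83.1 and 90.4 CPM) and Cyp4b1 (25.97 and 24.3 CPM) made up most of the sum, with log2 fold changes of -0.12 and 0.097. Cubn (14.03 and 17.2 CPM) had a log2 fold change of -0.29. Because a few genes lead such sums, both the log2 sum and, as a choice made after the values were seen, the mean log2 CPM of the list served as covariates. The kidney list itself differed between the groups, so fits with it as a covariate cannot tell its part from that of parity.

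Senescent cells have left the cell cycle for good and stay metabolically active. In textbook accounts p53, encoded by Trp53, induces the cyclin-dependent kinase inhibitor p21 (Cdkn1a), and the Cdkn2a and Cdkn2b locus makes the inhibitors p16INK4a and p15INK4b and, from another first exon, p19ARF, which restrains Mdm2. Mdm2 is the ubiquitin ligase that degrades p53 and is itself a p53 target. Cyclin D1 (Ccnd1) drives entry into the cycle against these inhibitors, lamin B1 (Lmnb1) of the nuclear envelope is typically lost in senescent cells, and Gdf15 is a secreted stress cytokine that p53 and the integrated stress response both induce.

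Promoter windows from RefSeq (GRCm38.p6; 250 bases before to 50 after an annotated start) were at hand for 6 of the 8 genes, 9 windows in all. Both Cdkn1a windows are shown because they separate its upstream start, beside the p53 element, from its downstream one. Capitals mark a match to the p53 element (20 bases made of a pair of 10-base half-sites without spacer, at most 1 mismatch) or to the GC box GGGCGG on either strand, whose complement reads CCGCCC. The upstream Cdkn1a window lies at chr17:29090729-29091028 and the downstream one at chr17:29093519-29093818, both on the plus strand, with 2790 bases between the starts.
Cdkn1a upstream: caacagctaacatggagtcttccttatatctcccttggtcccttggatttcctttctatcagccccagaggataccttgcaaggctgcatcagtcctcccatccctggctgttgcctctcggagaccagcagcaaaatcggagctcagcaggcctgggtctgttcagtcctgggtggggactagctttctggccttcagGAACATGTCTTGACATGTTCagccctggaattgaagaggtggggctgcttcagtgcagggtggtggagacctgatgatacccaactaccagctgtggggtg
Cdkn1a downstream: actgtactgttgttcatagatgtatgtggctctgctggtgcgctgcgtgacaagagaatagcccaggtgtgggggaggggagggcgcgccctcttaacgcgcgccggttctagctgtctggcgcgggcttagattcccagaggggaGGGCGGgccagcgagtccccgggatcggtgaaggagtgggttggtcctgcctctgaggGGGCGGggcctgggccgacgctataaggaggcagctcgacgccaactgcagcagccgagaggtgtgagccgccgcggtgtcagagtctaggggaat

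The upstream Cdkn1a window held the p53 element from base -51 to base -32 before the start, with 1 mismatch, and was the only window of these genes to do so. Of 32851 promoter windows of the same length, 29 (0.0883%) held such a match. The downstream window held no p53 element and 2 GC boxes, a motif present in 35.7% of all windows. A half-site alone was found in 8.36% of all windows, among them those of Trp53 and Mdm2. Counts were given per gene, so the share of Cdkn1a reads from each start was not measured.

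Both Cdkn2a starts are shown since 1 count covers both of its products. The p19ARF start lies in chr4:89294570-89294869 and the p16INK4a start in chr4:89282143-89282442, on the minus strand, beside the Cdkn2b start in chr4:89310983-89311282 on the same strand. Capitals again mark GC boxes.
Cdkn2a, p19ARF start: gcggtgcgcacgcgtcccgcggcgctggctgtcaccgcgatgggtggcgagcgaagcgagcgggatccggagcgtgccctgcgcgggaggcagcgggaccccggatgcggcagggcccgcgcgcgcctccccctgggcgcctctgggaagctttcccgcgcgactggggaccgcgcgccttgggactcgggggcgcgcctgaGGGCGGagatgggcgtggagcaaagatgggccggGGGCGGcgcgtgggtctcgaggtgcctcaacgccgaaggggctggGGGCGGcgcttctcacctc
Cdkn2a, p16INK4a start: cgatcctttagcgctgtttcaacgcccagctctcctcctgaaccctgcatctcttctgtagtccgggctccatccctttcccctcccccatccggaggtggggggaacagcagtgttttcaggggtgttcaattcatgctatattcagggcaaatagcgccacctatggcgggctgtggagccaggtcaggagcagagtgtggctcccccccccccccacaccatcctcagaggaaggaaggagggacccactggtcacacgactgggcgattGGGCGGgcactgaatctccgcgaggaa
Cdkn2b: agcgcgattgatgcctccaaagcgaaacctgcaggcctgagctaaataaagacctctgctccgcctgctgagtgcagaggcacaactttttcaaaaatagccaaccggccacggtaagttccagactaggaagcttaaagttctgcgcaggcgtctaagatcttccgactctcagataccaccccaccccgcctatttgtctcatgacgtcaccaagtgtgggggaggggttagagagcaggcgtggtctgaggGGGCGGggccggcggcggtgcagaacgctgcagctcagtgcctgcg

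The p19ARF window has a GC content of 77% and 45 CpG dinucleotides, against 60.3% and 12 in the p16INK4a window and 57.7% and 18 in that of Cdkn2b. In the GENCODE M21 annotation the 2 Cdkn2a transcripts share 575 exonic bases, with 277 and 320 bases of their own. A count on Cdkn2a therefore cannot be assigned to p16INK4a or p19ARF. The Mdm2 window (chr10:117710709-117711008, minus strand) is shown beside Cdkn1a, as the other classic p53 target of the set. It held 2 GC boxes and no p53 element in these letters. The window covers only the start at the upstream end of the gene. Other parts of Mdm2 were not searched, so the lack of a match is no statement about the whole gene.
Mdm2: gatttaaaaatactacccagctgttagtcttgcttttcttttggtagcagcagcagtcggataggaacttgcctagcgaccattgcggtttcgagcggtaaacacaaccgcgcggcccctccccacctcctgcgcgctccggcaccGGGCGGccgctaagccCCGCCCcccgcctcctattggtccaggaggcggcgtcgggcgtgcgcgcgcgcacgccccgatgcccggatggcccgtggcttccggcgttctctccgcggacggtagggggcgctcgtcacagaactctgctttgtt

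Per length of exonic sequence, the 8 genes spanned a wide range in these hearts. Ccnd1 had the highest level, 22.99 CPM per kilobase (mean of 16 libraries), followed by Mdm2 at 11.5, Cdkn1a at 9.2, Trp53 at 3.93, Lmnb1 at 1.91, Gdf15 at 0.729, Cdkn2b at 0.43 and Cdkn2a at 0.281 CPM per kilobase. Ccnd1 lay above Mdm2 in 16 of 16 libraries with no overlap of their ranges, and so did Cdkn1a above Trp53 and Lmnb1 above Gdf15. The order of the other neighbours was less strict: Mdm2 exceeded Cdkn1a in 14 libraries, Gdf15 exceeded Cdkn2b in 15 and Cdkn2b exceeded Cdkn2a in 15, while Trp53 exceeded Lmnb1 in 16 although their ranges overlapped. Ccnd1 rested on 3077 to 26310 counts per library and Mdm2 on 2091 to 13474, whereas Cdkn2a rested on 5 to 56 and Cdkn2b on 16 to 120.

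The first question the design poses is whether past pregnancies went with another level of these genes. In edgeR's quasi-likelihood test over all genes, 0 of the 8 genes passed at an adjusted p under 0.05, where 2 of 17813 genes (0.0112%) did. DESeq2 and limma voom also called 0 of the 8. At an unadjusted p under 0.05 stood 1 of the 8, Ccnd1, beside 8.12% of all genes (4.09% with a lower mean). A lower mean in multiparous hearts was found for 6 of the 8 and for 51.4% of all genes, and a higher one for 2 and for 48.6%. The groups overlapped for all 8, and 0.0337% of all genes had groups that did not. The fitted log2 fold changes, multiparous minus virgin, ran from -0.26 to 0.12 with a median of -0.18, against -0.003 for all genes tested.

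**Figure D1:**
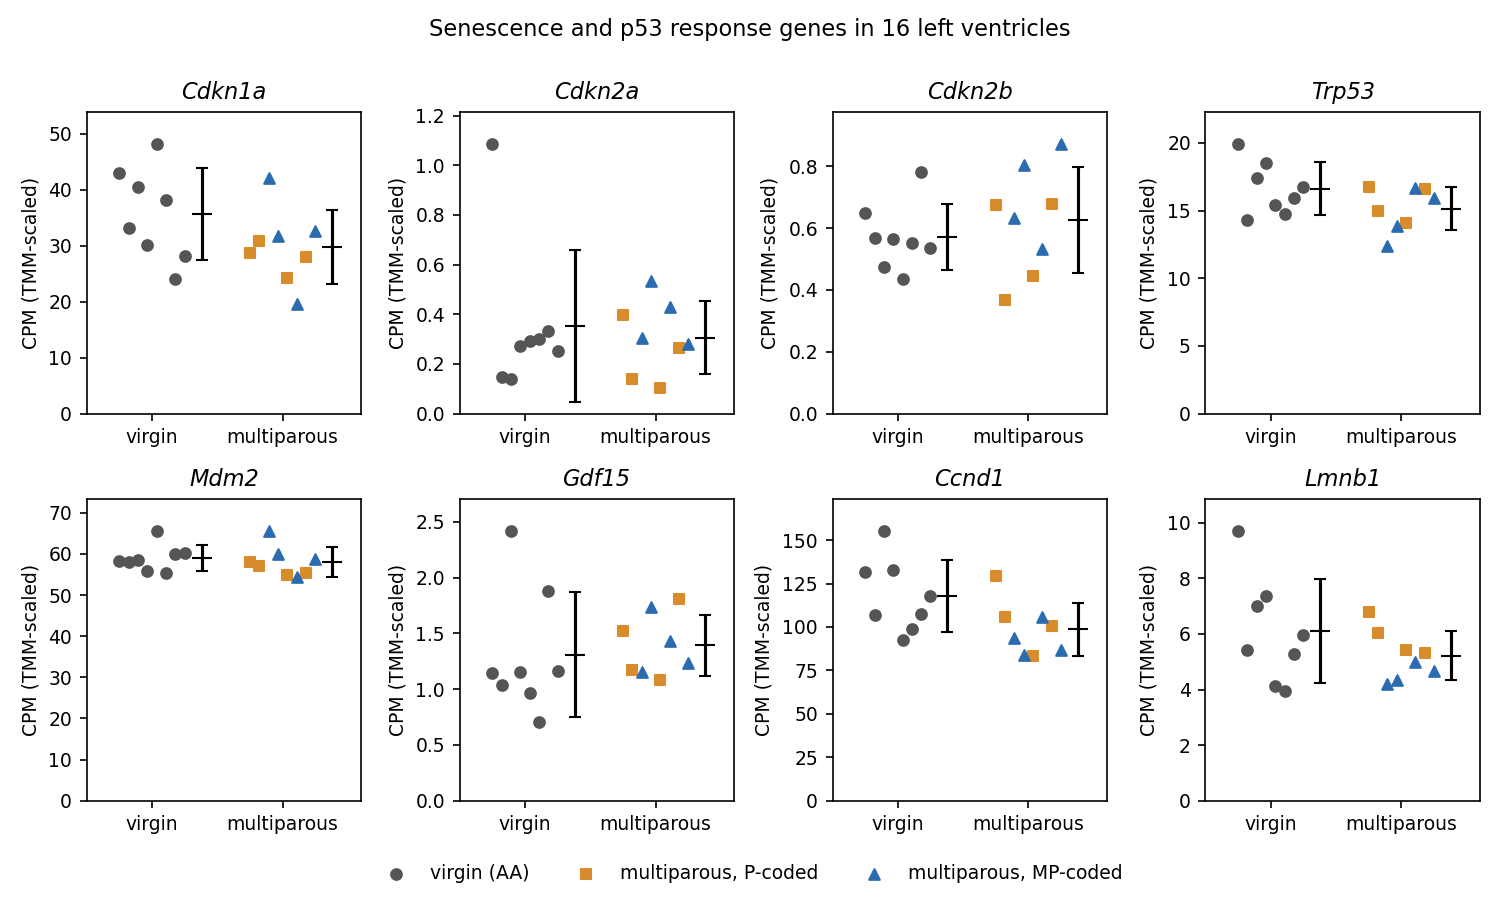
Expression of the 8 genes in CPM (scaled by TMM, linear axes from 0) in each of 16 libraries, with the mean and SD of each group of 8 as black bars; squares are P-coded and triangles MP-coded multiparous libraries. The groups overlap in every panel, virgin 1 stands alone at 1.09 CPM of Cdkn2a, and Mdm2 spans 54.5 to 65.6 CPM.

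Among the kinase inhibitors, Cdkn1a (ENSMUSG00000023067.14, chr17:29090976-29100727), whose product p21 binds cyclin-kinase complexes, ranged from 19.6 to 42.03 CPM in multiparous hearts (median 29.9) and from 23.99 to 48.2 CPM in virgin hearts (median 35.6). The means were 29.7 ± 6.6 and 35.6 ± 8.2 CPM (SD, n = 8 each), and 7 of 8 multiparous libraries lay below the virgin mean. Multiparous 6 was lowest and virgin 5 highest. The log2 fold change was -0.26 (SE 0.15, 95% interval -0.57 to 0.048, edgeR adjusted p = 0.698). These limits reach from a level of 0.675 times to one of 1.03 times the virgin level. In bulk tissue, fewer cells that express a gene and less RNA per cell cannot be told apart. The kidney list is lower in the same direction, and with its sum as a covariate the log2 fold change of Cdkn1a was -0.10, with its mean -0.14. Across libraries Cdkn1a and the kidney mean had r = 0.40, which did not pass (adjusted permutation p = 0.71). The fibroblast markers, with r = -0.75 (adjusted permutation p = 0.0199), were not used as a covariate. The part of either list in the result was not tested further. Of the 3553 exonic bases of Cdkn1a, 273 lie opposite AC167363.2, which held at most 7 counts.

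Cdkn2a (ENSMUSG00000044303.6, chr4:89274471-89294653), the locus of p16INK4a and p19ARF, was near the limit of detection. Multiparous libraries held 0.103 to 0.535 CPM (median 0.293) and virgin ones 0.139 to 1.09 CPM (median 0.282). The other virgin libraries lay at or below 0.332 CPM, and virgin 1 alone reached 1.09 CPM on 52 counts (95% Poisson interval 0.811 to 1.42 CPM, counting error only). The log2 fold change was -0.22 (SE 0.40, edgeR adjusted p = 0.94), and it turned to 0.27 without virgin replicate 1, to 0.63 with the kidney sum as covariate, to 0.64 with the kidney mean and to 0.039 with the mean of the cycling cell markers. The 95% interval, -1.06 to 0.63, leaves levels between 0.481 and 1.54 times the virgin level, so these libraries neither show nor exclude changes within those limits. Macrophage, neutrophil and cycling cell markers were also highest in virgin 1 (522.9, 12.7 and 209.5 CPM summed), and their part in its Cdkn2a value was not tested.

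Cdkn2b (ENSMUSG00000073802.5, chr4:89306299-89311039), the neighbouring gene for p15INK4b, ranged from 0.368 to 0.872 CPM in multiparous hearts (median 0.653) and from 0.436 to 0.781 CPM in virgin hearts (median 0.559). The lowest and the highest library, multiparous 2 and multiparous 8, were both multiparous. The log2 fold change of 0.12 had an SE of 0.18 and a 95% interval of -0.25 to 0.49 (edgeR adjusted p = 0.915). Against the virgin hearts it was -0.075 in the P-coded libraries alone. With the kidney sum as covariate it was 0.22, with the kidney mean 0.29.

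For the p53 core, Trp53 (ENSMUSG00000059552.13, chr11:69580359-69591873) measured 12.4 to 16.7 CPM in multiparous hearts (median 15.4) and 14.3 to 19.9 CPM in virgin hearts (median 16.3). Multiparous 3 was lowest and virgin 1 highest. The means were 15.1 ± 1.6 and 16.6 ± 1.9 CPM (SD, n = 8 each), a log2 fold change of -0.14 (SE 0.076, 95% interval -0.29 to 0.023, edgeR adjusted p = 0.695). With the kidney sum as covariate the value was -0.055, with the kidney mean -0.10 and with the cycling cell mean -0.082. The pseudogene Trp53-ps held at most 14 counts in any library, and reads that match both copies were not measured.

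Mdm2 (ENSMUSG00000020184.15, chr10:117688875-117710758), the ligase that turns p53 over, was the steadiest of the set. Its libraries ranged from 54.5 to 65.6 CPM in multiparous hearts (median 57.6) and from 55.4 to 65.5 CPM in virgin hearts (median 58.5), a coefficient of variation of 6.28% and 5.38%. The highest values were those of multiparous 3 and virgin 5, each also highest in Cdkn1a within its group. Multiparous minus virgin was -0.024 on the log2 scale (SE 0.042, edgeR adjusted p = 0.932), and its 95% interval, -0.11 to 0.064, leaves levels between 0.926 and 1.04 times the virgin level. This was the narrowest interval of the 8 genes. With the kidney sum as covariate the log2 fold change was -0.037, with the kidney mean -0.033.

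Gdf15 (ENSMUSG00000038508.7, chr8:70629393-70632456), the stress cytokine, ranged from 1.08 to 1.81 CPM in multiparous hearts (median 1.33) and from 0.702 to 2.42 CPM in virgin hearts (median 1.15). Both the lowest and the highest library, virgin 6 and virgin 3, were virgin, and the coefficient of variation was 19.8% in multiparous and 42.65% in virgin hearts. On the log2 scale the difference was 0.095 (SE 0.21, 95% interval -0.35 to 0.54, edgeR adjusted p = 0.955). It moved between 0.0056 without virgin replicate 6 and 0.27 without virgin replicate 3. With the kidney sum as covariate it was 0.26, with the kidney mean 0.27.

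Ccnd1 (ENSMUSG00000070348.5, chr7:144929931-144939925), which opens the cell cycle with Cdk4 and Cdk6, ranged from 83.3 to 129.3 CPM in multiparous hearts (median 97.2) and from 92.7 to 155.3 CPM in virgin hearts (median 112.7). Below the virgin mean lay 7 of 8 multiparous libraries, and multiparous 1 was the exception. The means were 98.6 ± 15.4 and 117.9 ± 20.8 CPM (SD, n = 8 each), with a log2 fold change of -0.26 (SE 0.11, 95% interval -0.48 to -0.036). Its edgeR adjusted p was 0.524 over all genes, so Ccnd1 did not pass, and over 29 alternative fits the adjusted p stayed between 0.288 and 0.95. With the kidney sum as covariate the value was -0.16, with the kidney mean -0.10 and with the cycling cell mean -0.18. Of its 4709 exonic bases, 1100 lie opposite LTO1, which averaged 11.4 CPM. Whether the counting used strand is not stated, and without strand the reads of these genes cannot be told apart there.

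Lmnb1 (ENSMUSG00000024590.8), a filament protein of the nuclear lamina, ranged from 4.18 to 6.78 CPM in multiparous hearts (median 5.17) and from 3.96 to 9.71 CPM in virgin hearts (median 5.7). Virgin 1 was highest, and virgin 6 was lowest. The log2 fold change was -0.22 (SE 0.16, 95% interval -0.56 to 0.11, edgeR adjusted p = 0.785), and -0.097 without virgin replicate 1. Against the virgin hearts it was -0.42 for the MP-coded and -0.056 for the P-coded libraries alone. With the kidney sum as covariate it was -0.09, with the kidney mean -0.11 and with the cycling cell mean -0.058. Lmnb1 and the kidney mean had r = -0.81 within the multiparous and 0.53 within the virgin hearts, so a common slope describes neither group. Of 8 multiparous libraries, 7 lay below the virgin mean.

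**Figure D2:**
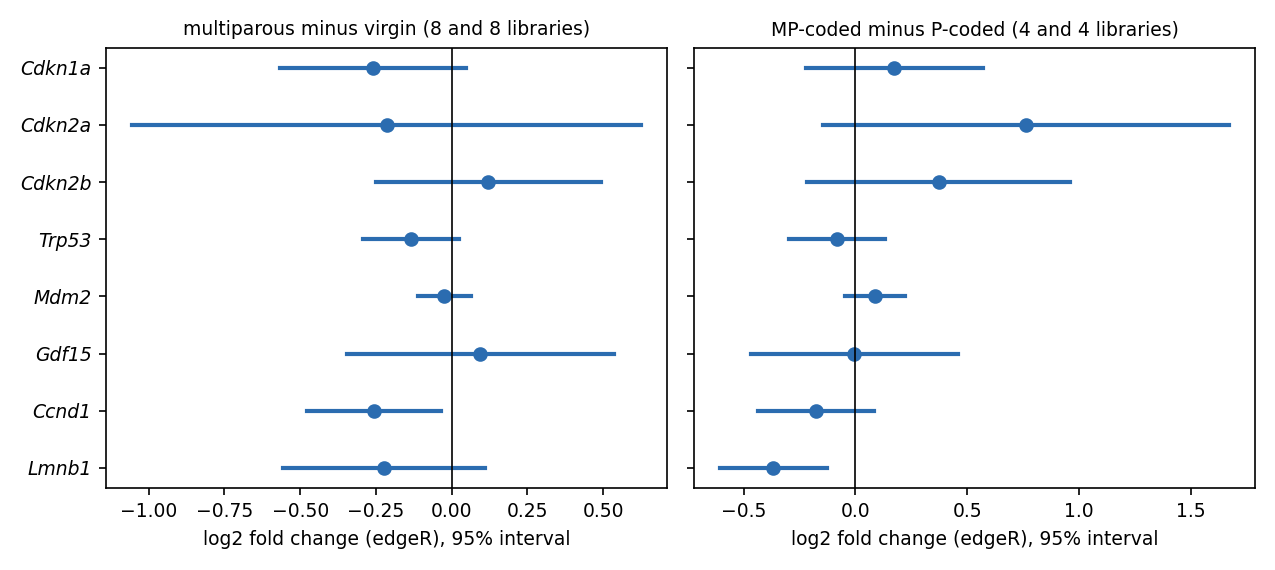
Fitted log2 fold changes (points) with 95% intervals (lines) from edgeR for the 8 genes, multiparous minus virgin on the left and MP-coded minus P-coded multiparous libraries on the right. On the left only the interval of Ccnd1 (-0.48 to -0.036) leaves out 0, on the right only that of Lmnb1 (-0.61 to -0.13), and neither gene passed adjustment.

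Within the multiparous group, the libraries coded MP and P were compared to see how far the spread followed the library names. None of the 8 genes passed in edgeR or DESeq2, where edgeR called 22 of 18123 genes (0.121%). At an unadjusted p under 0.05 stood Lmnb1 alone, beside 11.0% of all genes (5.07% with a lower mean in MP-coded libraries). Lmnb1 measured 4.18 to 5.01 CPM in the 4 MP-coded and 5.32 to 6.78 CPM in the 4 P-coded libraries, which did not overlap, as was the case for 5.88% of genes. The fitted log2 difference, MP minus P, was -0.37 (SE 0.11, edgeR adjusted p = 0.233). Cdkn2a (0.388 ± 0.118 against 0.225 ± 0.134 CPM, SD, n = 4 each) and Cdkn2b (0.709 ± 0.156 against 0.541 ± 0.158 CPM) had higher means in the MP-coded libraries, with edgeR adjusted p of 0.534 and 0.658. The log2 fold changes of the other 5 genes lay between -0.18 and 0.17, and the direction for Gdf15 and Cdkn1a turned in some fits that left out 1 library.

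Across the 16 libraries the 8 genes did not vary as a single set. All 28 pairs were compared on log2 CPM, and 3 passed after adjustment by both Pearson's r and Spearman's rho: those among Lmnb1, Ccnd1 and Trp53. Ccnd1 and Lmnb1 had r = 0.79 (permutation p = 0.00033, adjusted p = 0.00686) and rho = 0.76 (adjusted permutation p = 0.0111), with r = 0.74 within the multiparous and 0.83 within the virgin hearts. Without the 2 libraries farthest from the median of Ccnd1, multiparous 5 and virgin 3, r was 0.87.

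Trp53 and Lmnb1 had r = 0.78 (permutation p = 0.00049, adjusted p = 0.00686) and rho = 0.70 (adjusted permutation p = 0.0302), with r = 0.60 in multiparous and 0.89 in virgin hearts. Trp53 and Ccnd1 had r = 0.73 (permutation p = 0.00136, adjusted p = 0.0127) and rho = 0.81 (adjusted permutation p = 0.00728), with r = 0.57 and 0.75 within the groups. Without multiparous 3 and virgin 1, the libraries farthest from the median of Trp53, r was 0.64 and 0.75 for these pairs. The RNA of Lmnb1 and that of Trp53 were thus high in the same libraries, among them virgin 1, virgin 4 and virgin 3, and low together in multiparous 3 and multiparous 4. The proteins were not measured.

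The known target pair Cdkn1a and Mdm2 did not pass over all libraries, with r = 0.60 (permutation p = 0.0141, adjusted p = 0.0988) and rho = 0.51 (adjusted permutation p = 0.255). Within the groups r was 0.89 in the 8 multiparous and 0.26 in the 8 virgin hearts, a difference that was not tested. Without multiparous 6 and virgin 5, the libraries farthest from the median of Cdkn1a, r was 0.34, so the pooled value leaned on those libraries, though leaving out virgin 1, virgin 8 or multiparous 6 alone kept it between 0.53 and 0.64. Trp53 had r = -0.053 with Cdkn1a and -0.35 with Mdm2, and neither passed (adjusted permutation p of 0.959 and 0.705). The neighbours Cdkn2a and Cdkn2b had r = 0.55 (permutation p = 0.0259, adjusted p = 0.145) and rho = 0.54 (adjusted permutation p = 0.239).

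**Figure D3:**
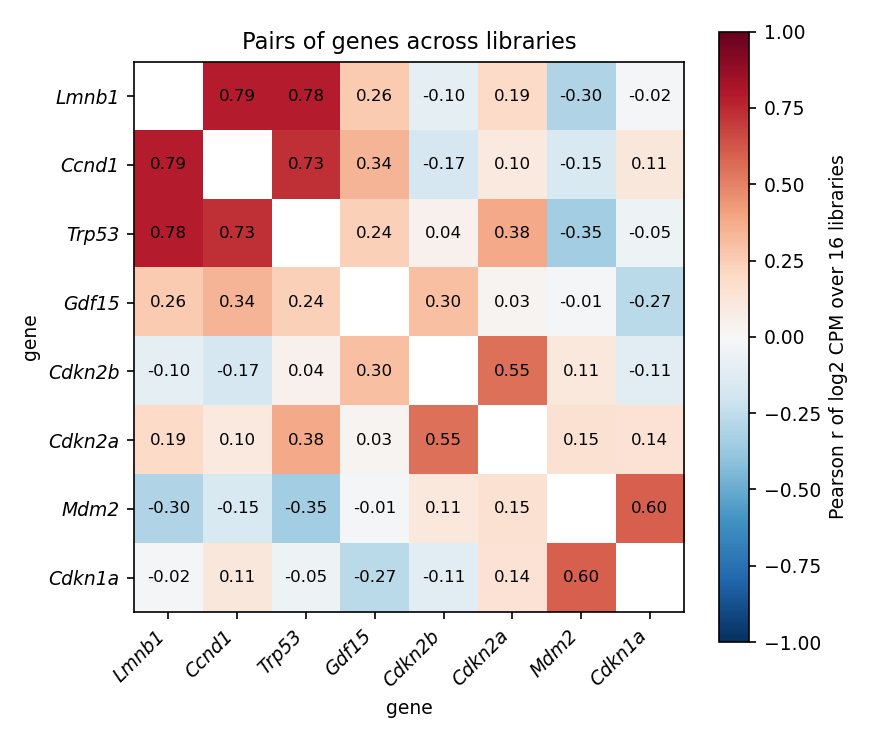
Pearson's r of log2 CPM over 16 libraries for each pair of the 8 genes, coloured from blue (-1) to red (1). Lmnb1, Ccnd1 and Trp53 form a block with r of 0.73 to 0.79, while the values for Cdkn1a with Mdm2 (0.60) and with Trp53 (-0.053) did not pass.

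Markers of other cells were set beside each gene, as the mean log2 CPM of each of 14 marker lists, a choice made after the values were seen, giving 112 relations. Of these, 4 passed by both r and rho. Lmnb1 went with 18 cycling cell genes, Mki67 and Top2a among them, with r = 0.92 (permutation p = 1e-05, the smallest that 100000 resamples can give, adjusted p = 0.00112) and rho = 0.85 (adjusted permutation p = 0.0056). Within the multiparous hearts r was 0.75 and within the virgin hearts 0.97, and without virgin 1 and virgin 4 it was 0.83. Ccnd1 (r = 0.80, adjusted permutation p = 0.00747, rho = 0.78) and Trp53 (r = 0.80, adjusted permutation p = 0.00747, rho = 0.84) went with the same genes, with r of 0.82 and 0.61 without those 2 libraries. The adjusted permutation p of these rho was 0.0235 for Ccnd1 and 0.00672 for Trp53. Within the multiparous hearts r was 0.91 for Ccnd1 and 0.72 for Trp53, and within the virgin hearts 0.82 and 0.89.

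The cycling list itself summed to 85.6 to 151.5 CPM in multiparous and 78.04 to 209.5 CPM in virgin hearts. Of its 18 genes 17 had a lower mean in multiparous hearts, none passed and none was at 0 in every library, while the centromere gene Cenpf had a higher mean (55.5 against 35.7 CPM). The median sum was nevertheless higher in multiparous hearts (123.3 against 107.1 CPM, exact permutation p = 0.665, adjusted p = 0.767 over 15 lists). The mean log2 CPM of the list, the measure that went with these genes, was 1.03 ± 0.43 (SD, n = 8) in the multiparous group and 1.3 ± 0.84 (SD, n = 8) in the virgin group. With that mean as a covariate, the log2 fold change of Lmnb1 went from -0.22 to -0.058, that of Trp53 from -0.14 to -0.082 and that of Ccnd1 from -0.26 to -0.18. With the sum, in which Cenpf weighs most, they were -0.28, -0.17 and -0.29. The part of cycling cells in these levels was not tested further.

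Cdkn1a ran against the fibroblast markers instead, with r = -0.75 (permutation p = 0.00071, adjusted p = 0.0199) and rho = -0.75 (adjusted permutation p = 0.0297). Within the multiparous hearts r was -0.88 and within the virgin hearts -0.51, and without multiparous 6 and virgin 2 it was -0.72. The 9 fibroblast genes, Pdgfra and Dcn among them, summed to 1449 to 2199 CPM in multiparous and 1342 to 1838 CPM in virgin hearts, with 7 of 9 higher in multiparous hearts, none passing and none at 0 in every library (exact permutation p = 0.0132, adjusted p = 0.0991 over 15 lists). Cdkn2a and the 8 macrophage genes had r = 0.72 (adjusted permutation p = 0.037) and rho = 0.58, whose adjusted permutation p of 0.252 did not pass. Without multiparous 6 and virgin 1 that r was 0.50.

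**Figure D4:**
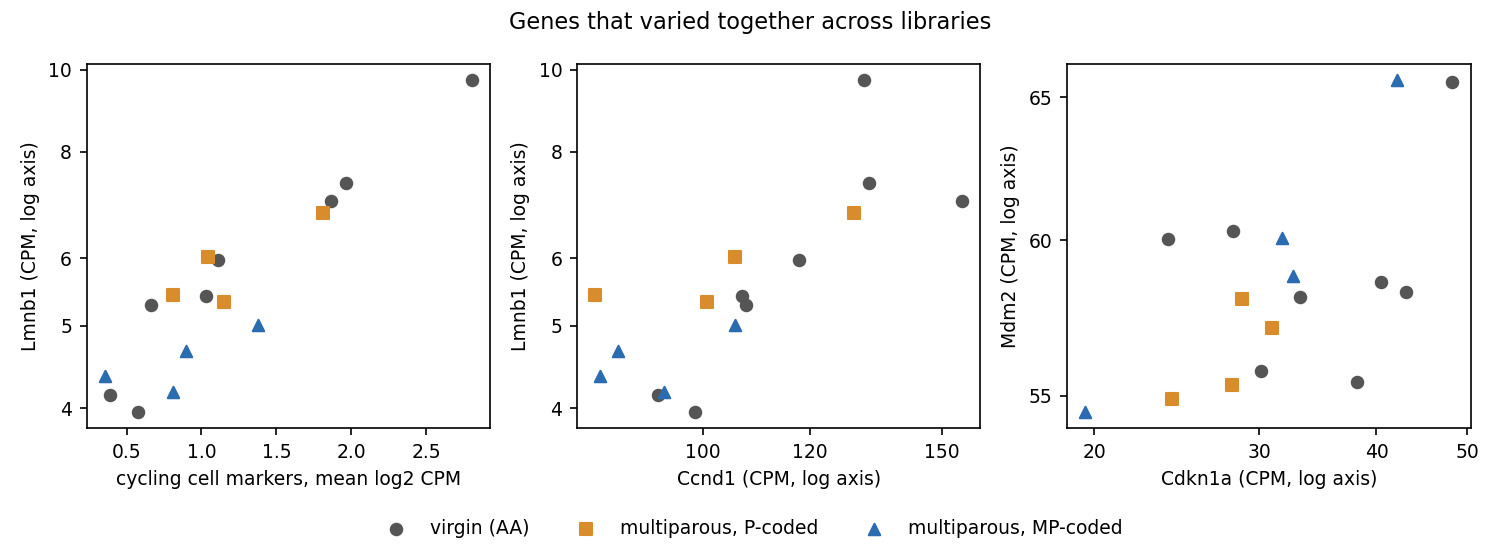
Levels in the 16 libraries on log axes in CPM: Lmnb1 against the mean log2 CPM of 18 cycling cell markers (linear axis, left), Lmnb1 against Ccnd1 (middle) and Mdm2 against Cdkn1a (right). Virgin 1 is at the top right of the left panel with 9.71 CPM of Lmnb1, and multiparous 3 and virgin 5 are the upper points of the right panel with 65.6 and 65.5 CPM of Mdm2.

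The genes whose order over the 16 libraries was most like that of each member were named by Spearman's rho among 12376 tested genes with a mean of at least 1 CPM and a proper symbol, as a description, since the highest of so many values is high in any case. For Lmnb1 these were Gdf11 (rho 0.97), Bub1b (0.95) and Mcm2 (0.93). For Ccnd1 they were Brip1 (rho 0.89), Scd2 (0.89) and Tpm4 (0.87), and for Trp53 Actb (0.91), Plscr3 (0.90) and Kctd17 (0.90). Cdkn1a was nearest to Asb11 (rho 0.90), Rab30 (0.86) and Vmp1 (0.84), and Mdm2 to Nol3 (0.85), Ube2a (0.84) and Atp6v1g2 (0.83). The low genes Cdkn2a (Arfgap3, rho 0.87; Cdk5, 0.85; Lrrc45, 0.84), Cdkn2b (Cc2d1a, 0.83; Lrrc75a, 0.74; Kri1, 0.73) and Gdf15 (Prelp, 0.83; Lrsam1, 0.80; Mrgprf, 0.80) completed the set.

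The wider pathways were read from fixed lists, several of which hold members of the set. Of 30 p53 target genes, the means of 15 were higher and those of 15 lower in multiparous hearts. Their median log2 fold change was -0.0071, and 0 passed in edgeR, DESeq2 or limma voom. At an unadjusted p under 0.05, as were 8.12% of all genes, stood 2, both higher: Ephx1, a microsomal epoxide hydrolase (41.5 against 35.2 CPM), and the kinase Plk2 (36.2 against 31.5 CPM). For Ephx1 the log2 fold change against virgin hearts was 0.44 in the MP-coded and 0.0058 in the P-coded libraries alone. The death receptor Tnfrsf10b (3.66 against 4.16 CPM) and Trp53inp1, an autophagy and stress protein (25.1 against 23.5 CPM), came next, and the edgeR adjusted p of these 4 ranged from 0.61 to 0.745. Between the codes, Ephx1 was the 1 list gene that passed in edgeR: it was higher in MP-coded than in P-coded libraries (log2 fold change 0.43, edgeR adjusted p = 0.0366).

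Of 17 tested p53 family members and regulators, 10 were higher and 7 lower, with a median of 0.012. Ppm1d, the phosphatase that switches the damage response off, measured 8.31 ± 0.53 against 7.48 ± 0.86 CPM (SD, n = 8 each, edgeR adjusted p = 0.587). It lay above the virgin mean in 8 of 8 multiparous libraries, but was named for a small p from the same values. The ligase gene Cop1 measured 74.7 against 78.8 CPM and Trp63 0.733 against 0.579 CPM. The acetyltransferase gene Ep300 measured 117.7 against 110.9 CPM, and its direction turned with the kidney mean as covariate. In edgeR, DESeq2 or limma voom 0 of the 17 passed. At an unadjusted p under 0.05 in edgeR stood 3, beside 8.12% of all genes.

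Of the 7 kinase inhibitors, the 2 named above, Cdkn1a and Cdkn2a, were lower and the other 5 higher, and 0 passed in any of the 3 tools. Cdkn1b, which encodes p27, measured 46.8 ± 3.8 against 42.8 ± 3.2 CPM (edgeR adjusted p = 0.542). It was the 1 gene of the 7 at an unadjusted p under 0.05, beside 8.12% of all genes. Cdkn1c (p57) measured 14.6 against 12.8 CPM, Cdkn2c (p18) 7.84 against 7.51 CPM and Cdkn2d (p19INK4d) 6.8 against 6.52 CPM. Of 21 regulators of the Cdkn2 locus, mostly Polycomb genes, 14 were higher and 7 lower with a median of 0.045. Cbx7, a Polycomb reader that silences the locus, measured 29.5 against 25.8 CPM (edgeR adjusted p = 0.467), Cbx8 3.43 against 2.97 CPM, Bmi1 74.3 against 79.8 CPM and the helix-loop-helix gene Id1 24.4 against 21.9 CPM. None of the 21 passed in the 3 tools, and 1 had an unadjusted p under 0.05, beside 8.12% of all genes.

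The cyclins, kinases and pocket proteins of G1 had lower means in 15 of 17 cases, against 51.4% of all genes, but with a median of only -0.05. E2f3, a factor that drives S phase genes, had the smallest p of the list. It ranged from 13.3 to 15.9 CPM in multiparous (median 13.8) and from 15.5 to 18.7 CPM in virgin hearts (median 16.2), and its groups overlapped only narrowly. No multiparous library reached the virgin mean, but the small p that named E2f3 rests on the same values. The log2 fold change was -0.25 (edgeR adjusted p = 0.0895), short of the threshold, while DESeq2 gave an adjusted p of 0.00619. E2f4 measured 19.98 against 22.2 CPM, Ccnd2 301.7 against 334.9 CPM and Cdk4 30.2 against 31.6 CPM. In edgeR 0 of 17 passed, with 3 at an unadjusted p under 0.05, beside 8.12% of all genes. The limma voom test also called 0.

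Secretory phenotype genes, which senescent cells release in culture, gave 20 higher and 17 lower means among 37 tested, with a median of 0.021. The 10 not tested for low counts include Il6, Il1a and Cxcl2. None passed in edgeR or limma voom, and 9 had an unadjusted p under 0.05 (6 higher, 3 lower), beside the 8.12% of all genes. DESeq2 called 3, Spp1, Fgf2 and Igfbp3, where it called 250 of 24391 genes (1.02%). The growth factor gene Fgf2 measured 38.7 ± 3.5 against 31.9 ± 3.6 CPM (SD, n = 8 each, edgeR adjusted p = 0.158), and Igfbp3 31.01 ± 6.0 against 21.99 ± 4.9 CPM (edgeR adjusted p = 0.207). Each lay above the virgin mean in 8 of 8 multiparous libraries, but both were named for a small p from the same values. Vegfa measured 222.7 against 258.1 CPM (edgeR adjusted p = 0.279).

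Spp1, osteopontin, which macrophages and kidney tubules also make, ranged from 0.154 to 1.002 CPM in multiparous and from 0.364 to 19.5 CPM in virgin hearts, with medians of 0.281 and 1.89 CPM. Virgin 1, highest in macrophage markers, held the highest value (edgeR adjusted p = 0.112). The kidney list was lower in multiparous hearts as given above. With its mean as a covariate, a choice made after the values were seen, the log2 fold change of Spp1 turned from -3.36 to 0.50. With the kidney sum as a covariate its direction did not turn. The part of kidney tubules or macrophages in the Spp1 level was not tested.

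Nuclear lamina and senescence chromatin genes were higher in 8 and lower in 8 of 16 tested. Banf1, a chromatin bridging protein, measured 35.9 against 38.1 CPM (edgeR adjusted p = 0.53), H2ax, of the damage-marking histone, 5.12 against 6.08 CPM, Lmnb2 7.37 against 8.25 CPM and the lamin B receptor gene Lbr 30.4 against 29.1 CPM. Of the integrated stress response genes listed with Gdf15, 9 of 16 tested were higher and 7 lower. Shmt2 measured 38.3 against 40.9 CPM (edgeR adjusted p = 0.4), Ppp1r15a 16.8 against 17.9 CPM, Ddit3 5.2 against 4.65 CPM and Trib3 2.69 against 2.4 CPM, while Gfral, the Gdf15 receptor of the hindbrain, was not tested for low counts. Of 12 apoptosis genes, some that promote and some that hold back cell death, 8 were higher. Bcl2l11, which promotes it, measured 25.03 against 22.2 CPM (edgeR adjusted p = 0.607). Bcl2, which holds it back, had medians of 21.97 against 19.6 CPM. Bak1 and Bax, which promote it, measured 17.2 against 18.03 CPM and 10.03 against 10.5 CPM. In these 3 lists edgeR, DESeq2 and limma voom called 0 genes. Each list had 1 gene at an unadjusted p under 0.05, beside 8.12% of all genes.

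**Figure D5:**
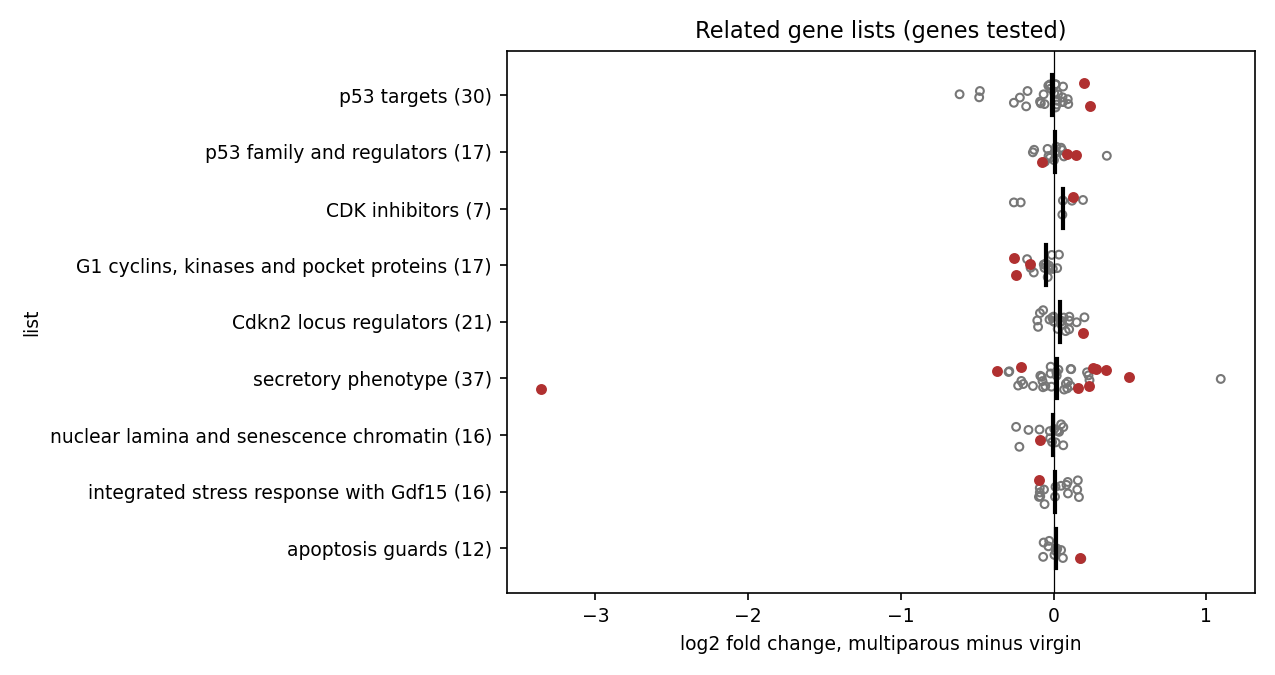
Log2 fold change, multiparous minus virgin, of each tested gene in 9 related lists (number of genes in brackets), with filled red points for an unadjusted p under 0.05 and black bars for list medians. No gene passed after adjustment over all genes in edgeR, the medians lie between -0.05 and 0.061, and Spp1 is the point at -3.36. The list labelled apoptosis guards also holds genes that promote cell death.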

How the data were processed

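RNA was sequenced in 8 multiparous and 8 virgin left ventricles. The submitters' processing notes name Trim Galore 0.6.10, STAR 2.7.11b, HTSeq 0.11.1 and GRCm38.p6. No source used here gives the strand setting or the annotation release. Raw counts per gene were deposited. Rows that name no gene held 26.5% to 33.1% of each library and were left out. Genes were matched to GENCODE M21 by identifier (99.53%), with H2ax and Macroh2a1 matched from older symbols.

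Counts were tested in edgeR 4.0.16 (R 4.3.3) by quasi-likelihood, with group as the sole term, TMM factors and the filterByExpr filter. Adjusted p-values (Benjamini-Hochberg) run over the 17813 genes left, with a threshold of 0.05. SE and 95% intervals come from the F statistic. The fit was tested on simulated data. DESeq2 1.42.0, limma 3.58.1 voom, other factors, filters, covariates and left-out libraries were alternatives. CPM values are scaled by TMM, and correlations used log2 CPM (prior count 2) with 100000 resamples. Marker sums, taken as log2 of the sum plus 0.5, were tested with 12870 assignments in an exact permutation, two-sided. Depth ran from 34560606 to 228325238 counts, so that the limit a count of 0 allows (3 counts) is 0.0131 to 0.0868 CPM. Such limits and Poisson intervals cover counting error only.

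Members and lists were chosen with earlier results of these data known. Named were all 8 genes, up to 4 others of each list by smallest p, list genes past the threshold in either comparison, and the 3 genes most like each member.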

Additional observations from a re-analysis of the deposited data

Results flagged for a closer look

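Among the 8 genes, in 16 groups of 8 libraries, 1 library stood apart from its group. Cdkn2a measured 1.09 CPM in virgin 1, where the next virgin library held 0.332 CPM. The gap was 0.796 of the group's range, above the critical value for 8 libraries.

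Among the other genes named, 4 libraries stood apart in the same way. Spp1 measured 19.5 CPM in virgin 1, with 6.09 CPM in the next library. Tnfrsf10b measured 4.56 CPM in multiparous 1 (next 3.78 CPM), Cdkn2d was low at 5.76 CPM in multiparous 7 (next 6.64 CPM), and Bmi1 measured 95.2 CPM in virgin 6 (next 81.9 CPM). Of 88 groups checked, 5 were marked, and chance marks about 1 in 20.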

How the results depend on the processing

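Over 29 alternatives (28 for Cdkn2a and Cdkn2b, which a filter at 1 CPM removed), none of the 8 genes passed in multiparous against virgin hearts, and over 11 none passed between the codes. The number of genes called, 2 in the test reported, was 0 with library totals without factors (1611 at an unadjusted p under 0.05), 250 with DESeq2, 56 without a filter on low counts, 1 with the kidney sum as covariate, 0 with the cycling cell sum (1579 unadjusted), 0 with the kidney mean (1078 unadjusted) or the cycling cell mean (1644 unadjusted), 0 for MP-coded libraries alone (1596 unadjusted), 97 for P-coded ones alone and 0 to 55 when 1 library was left out (55 without virgin replicate 7). With the replicate block it was 33, which brought Igfbp3 past the threshold (adjusted p = 0.0469) and changed no call among the 8 genes. No label used here says that replicate numbers pair the samples. The correlation of same-numbered deviations ran from -0.11 to 0.29, and 1 of 8 libraries was nearest to its own number. Such correlations cannot settle whether the samples are paired.

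Directions turned for Cdkn2a with the kidney sum (0.63), the kidney mean (0.64) and the cycling cell mean (0.039), for MP-coded libraries alone (0.14) and without virgin replicate 1 (range over left-out libraries -0.36 to 0.27), for Cdkn2b in P-coded libraries alone (-0.075), and for Mdm2 without factors (0.0083) and in MP-coded libraries alone (0.021). Between the codes, left-out libraries moved Cdkn1a from -0.0028 to 0.34 and Gdf15 from -0.12 to 0.14. Gdf15 between multiparous and virgin hearts ran from 0.0056 to 0.27. The kidney sum turned Cdkn1c (-0.16), Bak1 (0.0041) and Bax (0.063), and moved the medians of the secretory list to 0.20 and of the integrated stress response list to 0.20. The kidney mean turned Ep300 (-0.028), Cdkn1c (-0.14), Spp1 (0.50), Bak1 (0.000798) and Bax (0.12), and moved the median of the integrated stress response list to 0.25. Ppp1r15a turned in MP-coded libraries alone (0.011). The causes were not tested.

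The 3 pairs among Lmnb1, Ccnd1 and Trp53 passed by r in each alternative run. For the pairs, the libraries left out, each alone, were only virgin 1, virgin 8 and multiparous 6. Some weak pairs turned in those fits. Over those fits r ran from -0.11 to 0.30 for Cdkn1a and Cdkn2a, from -0.15 to 0.11 for Cdkn2a and Ccnd1, from -0.36 to 0.22 for Cdkn2a and Lmnb1 and from -0.025 to 0.055 for Cdkn2b and Trp53, each lowest without virgin replicate 1. It ran from -0.29 to 0.014 for Cdkn1a and Trp53 and from -0.015 to 0.017 for Mdm2 and Gdf15, highest without multiparous replicate 6. Leaving out virgin replicate 1 or multiparous replicate 6 from the pairs, and the 2 list means, were chosen after seeing the data. Counts of 5 to 56 limit what Cdkn2a can show.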
